A study of Mus musculus with 4 samples.

Results

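Gm12840, Gm29243, Gm20721, AY036118, Gm6133, Hopxos and Hopx, 7 genes of which most were taken for noncoding, were found by symbol among the 27998 genes of the count table. The first 6 were selected on their summed UMI levels, which differed between WT and Bcl3-/- cells of these same libraries, and Hopx was added as the gene opposite Hopxos. Their difference between genotypes is therefore a description, and neither its size nor its calls are read as a test. Tests are read for Hopx and for the comparisons between classes of cells. For the 6 selected genes the class comparisons have a limit. Their reference clusters in the Bcl3-/- libraries held many of the counts that chose them. Virus-specific CD8+ T cells that bind the H-2Db tetramer with the GP33 peptide came from sorted spleen cells of 2 chimeras, made with mixed marrow, on day 8 after infection with LCMV Armstrong, an acute arenavirus infection. In each chimera, WT donor cells carried CD45.1 and Bcl3-/- donor cells, which lack the IkappaB family protein Bcl-3, carried CD45.2, both on the C57bl/6 background. The hosts were irradiated Rag1-/- mice, which make no T or B cells of their own but may keep other blood cells. Each animal gave 1 WT and 1 Bcl3-/- library (WT1 and KO1 from chimera 1, WT2 and KO2 from chimera 2). With n = 2 libraries per genotype, the CD45 allele and any other difference between the donor lines cannot be told apart from the loss of Bcl-3. The libraries held 4941 cells (WT1), 8092 cells (WT2), 5366 cells (KO1) and 6494 cells (KO2), with 20192770, 19217181, 21813076 and 21525963 unique molecular identifiers (UMIs) in them in the same order. Between 37 and 63 cell barcodes were shared by a pair of libraries, where draws from the listed barcodes would give 36.0 to 71.3.

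Long noncoding RNAs are transcribed and processed much like messenger RNAs but carry no long reading frame, and many are read from the strand opposite a coding gene. Homeodomain-only protein, the product of Hopx, lacks the residues that let other homeodomains bind DNA, and it acts as a cofactor of other regulators. In T cells it is known from effector and memory cells. Gnas encodes the alpha subunit of the stimulatory G protein, and Rpl17 encodes a protein of the large ribosomal subunit.

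The label of noncoding genes did not hold for all members in the annotation (GENCODE vM21 on GRCm38, the mm10 build named in the submitters' processing notes). Of the 7, 4 had a long noncoding type. Gm20721 is typed protein-coding, with 13 exons (chr2:174330319-174346712, minus strand), of which 99.0% of the bases lie opposite exons of Gnas. Gm6133 is typed protein-coding too, as 1 exon inside the gene body of Slc14a2 on the other strand (chr18:78349754-78350701, plus strand), whereas RefSeq lists it as a pseudogene, and 66.4% of its transcript matches Rpl17 at 92.1% identity.

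Gm12840 is a lincRNA of 2 exons (chr4:117700188-117700923, plus strand), and Gm29243 is a lincRNA of 4 exons (chr8:34216859-34226145, plus strand). AY036118 is a lincRNA of 1 exon (chr17:39847113-39848035, minus strand), and all of its exon bases lie opposite exons of Gm42418, a gene that holds ribosomal RNA sequence. Hopxos is typed antisense, with 2 exons (chr5:77094532-77102303, plus strand), and 24.8% of its exon bases lie opposite exons of Hopx (chr5:77086988-77115121, minus strand, protein-coding). The strand rule used in counting is not given in the sources used here, so reads of AY036118, Gm20721 and Hopxos cannot be told apart with certainty from reads of the gene opposite each of them, and reads of Gm6133 and Gm12840 may be shared with their copies. Of the last 300 bases of Gm12840, 100% lay in its match with its near copy Gm20186. For Gm6133, 0% of the last 300 bases lay in its match with Rpl17.

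Since the assay reads the 3′ ends of transcripts, the annotated ends are shown for 2 members with a poly(A) signal and 1 without, each from 5′ to 3′ on its own strand (GRCm38), with the letters AATAAA or ATTAAA in capitals. Either signal stood in the last 100 bases of 41.5% of all 109970 annotated transcripts and of 30.3% of those of long noncoding genes.
Hopxos, chr5:77102224-77102303, plus strand: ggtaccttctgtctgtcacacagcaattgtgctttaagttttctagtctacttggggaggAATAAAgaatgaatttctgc
Gm29243, chr8:34226066-34226145, plus strand: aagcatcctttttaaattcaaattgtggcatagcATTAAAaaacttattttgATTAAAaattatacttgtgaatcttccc
AY036118, chr17:39847113-39847192, minus strand: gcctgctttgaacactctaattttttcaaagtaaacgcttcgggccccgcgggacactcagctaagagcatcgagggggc
Neither signal was in the last 100 bases of Gm12840, Gm20721, AY036118 or Gm6133, and Hopx had both.

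In the GENCODE model, Hopxos runs across the start of the Hopx reading frame, which is shown on both strands to place the overlap of the 2 genes (the start codon and its complement are in capitals). Of the 219 coding bases of Hopx, which give 73 residues, 144 lie inside the first exon of Hopxos, but none of the last 300 bases of either transcript is shared with the other. RefSeq gives a shorter Hopxos (chr5:77098830-77102313), which reaches neither the start codon nor these coding bases.
Hopx, chr5:77094950-77095009, minus strand: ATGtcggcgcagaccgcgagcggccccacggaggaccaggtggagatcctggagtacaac
Hopxos, chr5:77094950-77095009, plus strand: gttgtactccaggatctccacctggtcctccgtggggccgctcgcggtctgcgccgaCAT

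Gm12840 has a near copy in Gm20186, which is shown because the count of either depends on few letters. Their transcripts differed in 16 of 628 aligned columns, and 10 of these lay in the last 100 bases of Gm12840, where the letters that differ are in capitals.
Gm12840, chr4:117700824-117700923, plus strand: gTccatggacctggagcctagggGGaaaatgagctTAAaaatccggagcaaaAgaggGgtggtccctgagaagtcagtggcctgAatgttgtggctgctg
Gm20186, chr6:18845998-18846097, minus strand: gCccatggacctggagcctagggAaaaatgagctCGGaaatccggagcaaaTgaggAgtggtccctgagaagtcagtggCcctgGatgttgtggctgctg

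Levels are given as UMIs of a gene per 1000000 UMIs of all cells of a library (CPM), which compare 1 gene between libraries and not genes with each other. Hopxos was at 5.79 CPM (WT1) and 6.19 CPM (WT2) in WT cells, and at 18.7 CPM (KO1) and 16.1 CPM (KO2) in Bcl3-/- cells. Gm29243 was at 7.92 CPM (WT1) and 8.33 CPM (WT2) in WT cells, and at 22.8 CPM (KO1) and 21.9 CPM (KO2) in Bcl3-/- cells. In both genes the replicates of a genotype lay close together and the genotypes did not overlap, with mean levels in Bcl3-/- of 17.4 ± 1.83 CPM and 22.3 ± 0.639 CPM against 5.99 ± 0.282 CPM and 8.12 ± 0.284 CPM in WT (SD, n = 2).

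Gm12840 was at 6.69 CPM (WT1) and 9.42 CPM (WT2) in WT cells, and at 38.7 CPM (KO1) and 73.3 CPM (KO2) in Bcl3-/- cells. Gm20721 was at 1.68 CPM (WT1) and 1.93 CPM (WT2) in WT cells, and at 8.66 CPM (KO1) and 19.3 CPM (KO2) in Bcl3-/- cells, from 34, 37, 189 and 415 UMIs. These 2 genes were higher in KO2 than in KO1, and the lower Bcl3-/- library still lay above both WT libraries.

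AY036118 was at 8.52 CPM (WT1) and 6.66 CPM (WT2) in WT cells, and at 39.9 CPM (KO1) and 88.9 CPM (KO2) in Bcl3-/- cells. Gm6133 was at 23.8 CPM (WT1) and 17.0 CPM (WT2) in WT cells, and at 79.5 CPM (KO1) and 121 CPM (KO2) in Bcl3-/- cells. These 2 genes followed the same order, with KO2 above KO1 and WT1 above WT2. Within chimera 1, the Bcl3-/- level was 4.68-fold (AY036118) and 3.34-fold (Gm6133) that of WT, and within chimera 2 it was 13.3-fold and 7.15-fold. The corresponding folds in chimeras 1 and 2 were 5.79 and 7.78 for Gm12840, 5.15 and 10.0 for Gm20721, 2.88 and 2.63 for Gm29243, and 3.22 and 2.60 for Hopxos.

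**Figure D1:**
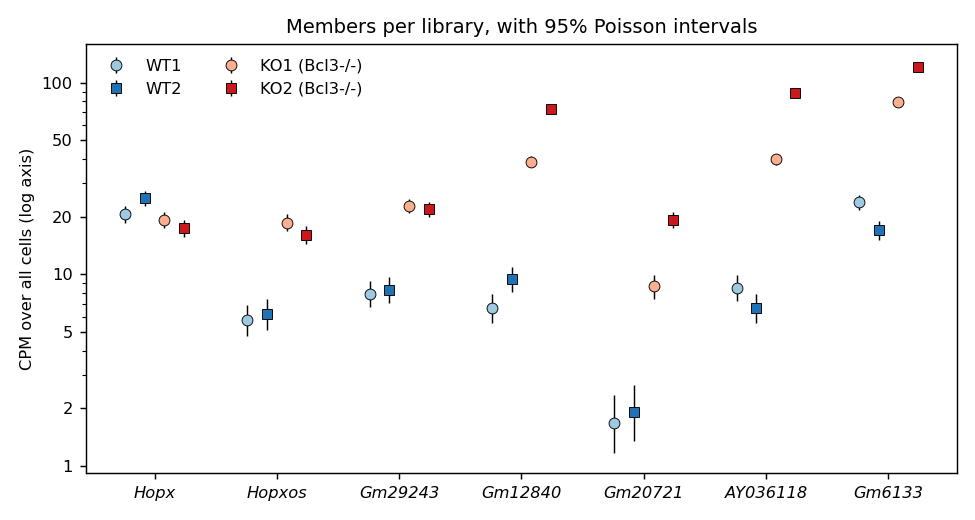
CPM of the 7 genes over all cells (log axis) in the 4 libraries, with WT in blue and Bcl3-/- in red; bars are 95% Poisson intervals, which cover counting error only. The Bcl3-/- points of 6 genes lie above both WT points, whereas those of Hopx lie just below, at 17.5 to 19.2 CPM against 20.6 to 25.0 CPM.

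Of 11566 genes that passed the filter on low counts, all 7 members among them, edgeR called 33 higher (0.285%) and 9 lower (0.0778%) in Bcl3-/-, or 0.363% in either direction (Benjamini-Hochberg adjusted p under 0.05). The 6 selected genes were among those called higher, and their groups did not overlap, as for 25.7% of all genes tested in that direction. Nothing is read from that, since this contrast chose them. On the log2 scale the differences ± SE were 2.77 ± 0.28 (Gm12840), 1.44 ± 0.13 (Gm29243), 2.92 ± 0.37 (Gm20721), 3.05 ± 0.34 (AY036118), 2.27 ± 0.22 (Gm6133) and 1.52 ± 0.16 (Hopxos), where the median gene stood at 0.01. By size they ranked between place 8 (AY036118) and place 105 (Gm29243). With chimera as a replicate block, which the shared animals allow, 556 genes were called higher (4.81%) and 560 lower (4.84%), 9.65% in all.

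Hopx, the coding partner that the selection had not used, was at 20.6 CPM (WT1) and 25.0 CPM (WT2) in WT cells, and at 19.2 CPM (KO1) and 17.5 CPM (KO2) in Bcl3-/- cells. Both Bcl3-/- libraries lay below both WT libraries, as for 18.8% of all genes tested, but the gap between KO1 and WT1 was within their counting intervals (17.4 to 21.1 CPM and 18.6 to 22.6 CPM). The difference was -0.32 ± 0.13 on the log2 scale (edgeR adjusted p = 0.313, n = 2) and did not pass the threshold. It did not pass with the block either (-0.32, edgeR adjusted p = 0.124).

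Each of the 3 opposite-strand pairs was also read as a ratio within a library. Hopxos, AY036118 and Gm20721 were selected for their difference between genotypes, so their ratios are a description and no separate result. Per 100 UMIs of Hopx there were 28.2 UMIs of Hopxos in WT1 and 24.8 in WT2, against 97.1 in KO1 and 92.0 in KO2. The ratio was thus higher in both Bcl3-/- libraries than in both WT libraries. It compares libraries and not the levels of the 2 genes, and reads of the 2 strands may have been counted together. Per 100 UMIs of Gm42418 there were 12.7 UMIs of AY036118 in WT1 and 10.6 in WT2, against 38.3 in KO1 and 45.0 in KO2. Per 100 UMIs of Gnas there were 0.204 UMIs of Gm20721 in WT1 and 0.288 in WT2, against 1.04 in KO1 and 2.34 in KO2. Gnas itself stood at 824, 668, 829 and 825 CPM in WT1, WT2, KO1 and KO2 (0.13 ± 0.14 on the log2 scale, edgeR adjusted p = 0.708). Gm42418, which was called higher with the block alone, was at 67.2 and 62.7 CPM in WT1 and WT2 against 104 and 197 CPM in KO1 and KO2 (1.18 ± 0.24, edgeR adjusted p = 0.117, and 0.000346 with the block).

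**Figure D2:**
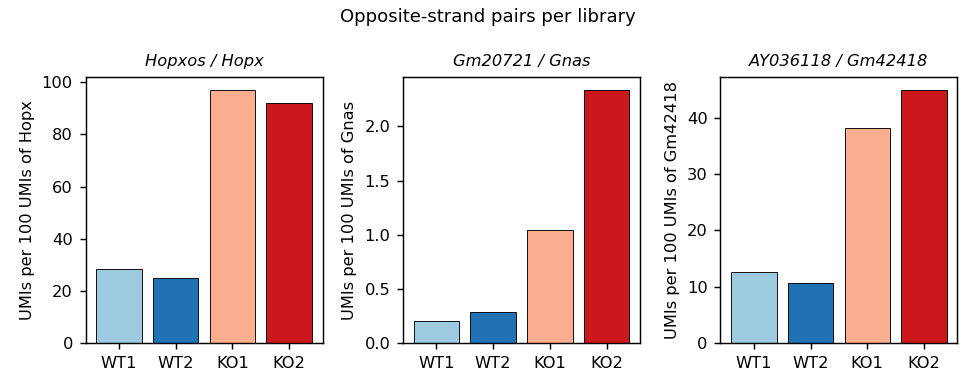
UMIs of Hopxos, Gm20721 and AY036118 per 100 UMIs of the gene opposite each, 1 bar per library, axes from 0. The Bcl3-/- bars are higher in each pair, whose counted gene was selected for its difference between genotypes. For Hopxos the Bcl3-/- bars stand at 97.1 and 92.0 against 28.2 and 24.8 in WT.

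Cells were then compared by class, with clusters found in each library without the 7 genes and named from marker lists. Many CD8 T cells lay in clusters that passed the naming threshold for no list (unnamed CD8), and others in clusters that matched terminal effector, interferon-stimulated or cycling lists. A class with genes of memory precursor effector cells (MPEC) is called MPEC-gene, since naive T cell genes were nearly as frequent among its leading genes and were more frequent than MPEC genes in KO1. Both lists hold Tcf7 and Ccr7, which were among these leading genes in all 4 libraries and count for each list. The KO1 cluster of the MPEC-gene class (131 cells) also had Cd4, the coreceptor of helper T cells, among its 10 leading genes. It had the lowest share of Cd8a and Cd8b1 UMIs among the KO1 clusters counted as CD8. The unnamed class holds a KO1 cluster of 738 cells with Tcf7, Il7r, Bcl2 and Slamf6 of the MPEC list among its 10 leading genes, so that in KO1 the 2 classes are not cleanly apart. It also holds a KO2 cluster of 1431 cells with Tcf7 alone of that list among its 10 leading genes. B-like clusters and clusters led by Lyz2 made up 1.48% to 2.50% and 1.76% to 2.50% of a library. In KO1 and KO2 the Lyz2-led clusters (9 and 11) had more genes of the B cell list, which holds MHC class II genes, than of the myeloid list among their leading ones, so they are given no cell type name. In WT1 and WT2 they are clusters 9 and 9. The sort was for CD8+ tetramer-positive cells, and Cd8a was detected at 464 to 521 CPM in the 4 libraries, while Ms4a1 (CD20) of B cells was at 21.2 to 27.4 CPM.

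Gm12840, Hopx, Hopxos and Gm29243 were lower in both B-like and Lyz2-led clusters than in CD8 clusters, each in a fit over 4 libraries. Hopx was at 22.1, 26.6, 20.6 and 18.9 CPM in the CD8 clusters of WT1, WT2, KO1 and KO2, and at 5.85, 3.31, 4.23 and 8.16 CPM in the B-like clusters. Each B-like value rested on 1 to 3 UMIs. Gm12840 was at 6.94, 10.1, 41.7 and 79.2 CPM in the CD8 clusters of the same libraries, and at 3.40, 3.14, 8.52 and 8.22 CPM in the Lyz2-led clusters, from 3 to 8 UMIs. In B-like clusters, Gm12840 and Gm29243 each had 2 UMIs in WT1 and 1 in WT2. The counting intervals of these values include the CD8 levels of the same WT libraries. The calls of the selected genes thus lean on Bcl3-/- libraries, whose CD8 clusters held most of the counts that chose the genes.

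In B-like against CD8 clusters, edgeR with library as a block called 4 members lower (18.6% of 10964 genes were) and 1 higher (13.8% were). Gm12840 differed by -2.26 ± 0.34, Hopx by -1.98 ± 0.42, Hopxos by -1.47 ± 0.50 and Gm29243 by -1.33 ± 0.42 on the log2 scale (edgeR adjusted p = 7.08e-10, 1.73e-05, 0.0129 and 0.00708, n = 4 libraries). Gm12840, Hopx and Gm29243 were lower in 4 of 4 libraries and Hopxos in 3 of 4, since WT2 held 3 UMIs of it in B-like cells and WT1 and KO2 held 0, which allows up to 8.77 CPM and 8.16 CPM at 3 counts. The limit in WT1 lies above its CD8 level of 6.18 CPM, so that the zero there does not place Hopxos below it. The calls of Hopxos and Gm29243 were lost without KO1 (edgeR adjusted p = 0.0884 and 0.108) and without KO2 (0.271 and 0.0733).

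In Lyz2-led against CD8 clusters, the same 4 genes were called lower (20.7% of 11373 genes were). The differences were -2.48 ± 0.30 (Gm12840), -2.24 ± 0.35 (Hopxos), -2.14 ± 0.31 (Gm29243) and -1.77 ± 0.27 (Hopx) on the log2 scale, with edgeR adjusted p between 3.15e-05 and 0.000229. All were lower in 4 of 4 libraries.

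Gm6133 was higher in B-like than in CD8 clusters. It was at 23.8, 17.3, 79.8 and 122 CPM in the CD8 clusters of WT1, WT2, KO1 and KO2, and at 61.4, 23.2, 116 and 215 CPM in the B-like clusters. The difference was 0.80 ± 0.14 (edgeR adjusted p = 2.13e-07), with the higher value in B-like cells in 4 of 4 libraries. In Lyz2-led clusters it differed by -0.34 ± 0.14 (edgeR adjusted p = 0.0720), which did not pass.

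AY036118, the strand opposite ribosomal RNA sequence, was called in none of the 6 class comparisons. It was at 8.77, 6.63, 48.6 and 89.7 CPM in B-like clusters of WT1, WT2, KO1 and KO2, against 8.34, 6.46, 39.0 and 87.9 CPM in CD8 clusters. The difference of 0.17 ± 0.21 (edgeR adjusted p = 0.594) did not pass. Gm20721 was called in none of them either, but its WT values rested on 0 to 4 UMIs in every class other than cycling-like and unnamed CD8, which limits what could be detected. In B-like cells it differed by -0.28 ± 0.49 (edgeR adjusted p = 0.715).

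**Figure D3:**
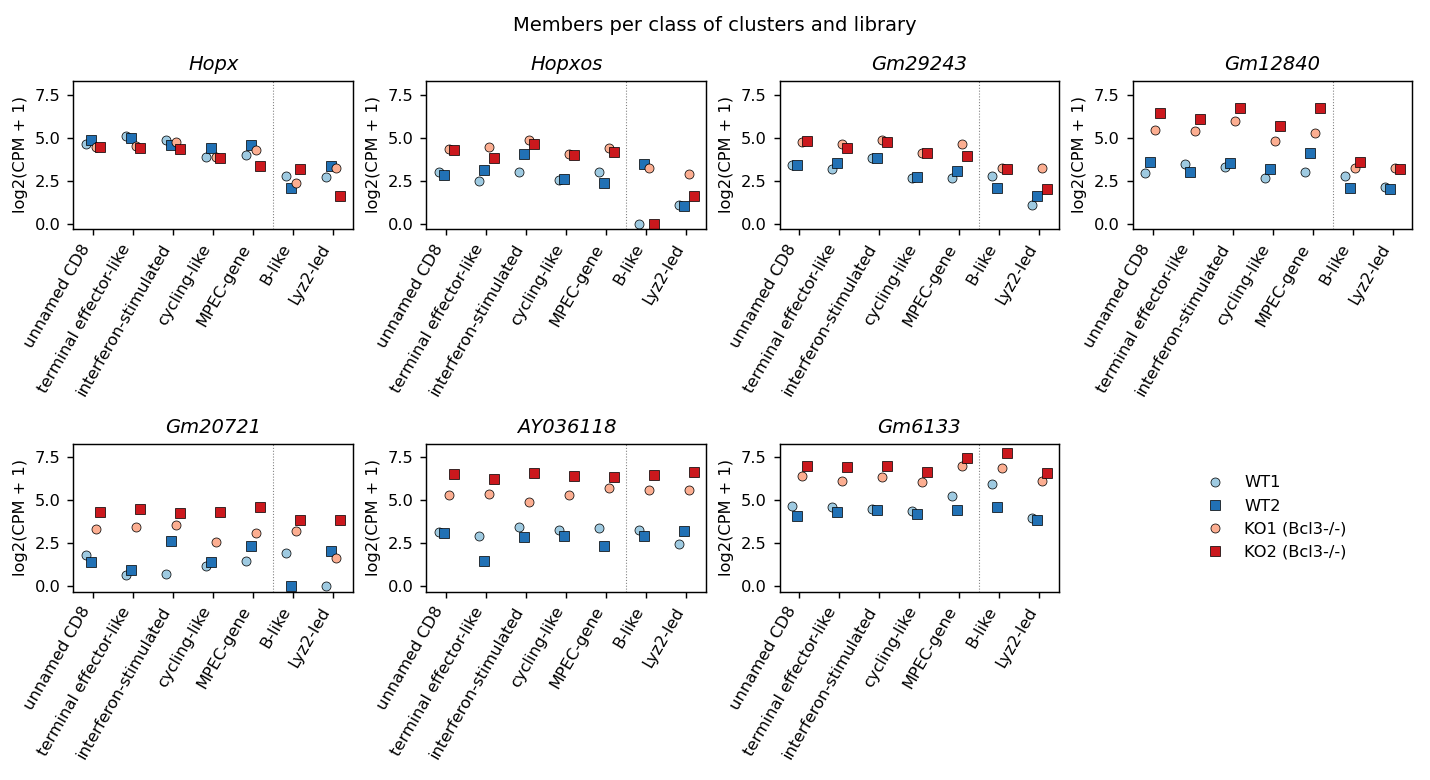
log2(CPM + 1) of each gene in 7 classes of clusters, 1 point per library, WT in blue and Bcl3-/- in red; the dotted line separates CD8 classes from B-like and Lyz2-led clusters. Hopx, Gm29243 and Gm12840 are lower in both classes right of the line than in the CD8 clusters of the same library, and Hopxos is so in the Lyz2-led clusters. In B-like clusters Hopxos is higher in WT2, at 9.94 CPM against 6.40 CPM in CD8 clusters, and its WT1 point is a 0 that allows up to 8.77 CPM. AY036118 is lower there in the Lyz2-led clusters of WT1 alone.

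**Figure D4:**
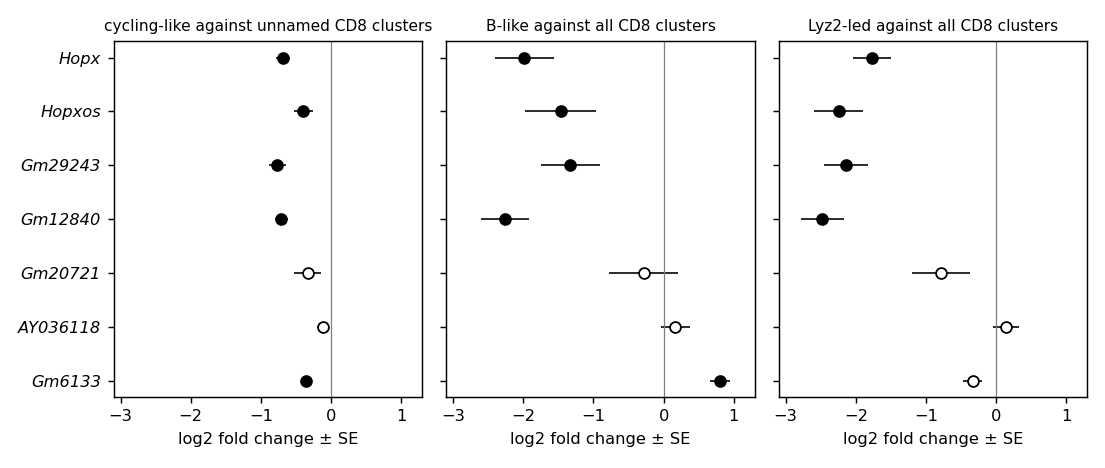
log2 fold change ± SE (edgeR, n = 4 libraries, library as a block) of the 7 genes in cycling-like against unnamed CD8 clusters, and in B-like and Lyz2-led against all CD8 clusters; filled points passed the adjusted threshold. In B-like cells Gm12840 is lowest at -2.26 and Gm6133 is the only member called higher, at 0.80.

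Among CD8 classes, the cycling-like class had the most members called. Compared with unnamed CD8 clusters, 5 members were called lower (24.8% of 10466 genes were, and 23.7% were higher): Gm29243 by -0.77 ± 0.12, Gm12840 by -0.71 ± 0.09, Hopx by -0.69 ± 0.10, Hopxos by -0.40 ± 0.13 and Gm6133 by -0.35 ± 0.07 (edgeR adjusted p from 6.95e-08 to 0.0143). The first 4 were lower in 4 of 4 libraries and Gm6133 in 3 of 4. Hopx was at 14.0, 20.4, 13.6 and 13.2 CPM in the cycling-like clusters of WT1, WT2, KO1 and KO2, below the 24.0, 28.6, 21.4 and 20.7 CPM of the unnamed CD8 clusters in every library. The call of Hopxos was lost without WT1, KO1 or KO2 (edgeR adjusted p = 0.0616, 0.0643 and 0.0579).

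In MPEC-gene against unnamed CD8 clusters, Hopx was lower by 0.57 ± 0.20 on the log2 scale and Gm6133 was higher by 0.48 ± 0.11 (edgeR adjusted p = 0.0260 and 0.000390; 10.7% of 10080 genes were called lower and 9.74% higher). The Hopx values were 14.8, 22.9, 18.7 and 9.45 CPM in WT1, WT2, KO1 and KO2, the last from 6 UMIs. This call was lost without WT1 (edgeR adjusted p = 0.170) or KO2 (0.131). Without KO1, whose unnamed class has MPEC genes, both calls held (edgeR adjusted p = 0.0192 for Hopx and 0.00523 for Gm6133). That fit still held KO2, where an unnamed cluster of 1431 cells had Tcf7 of the MPEC list among its leading genes. In interferon-stimulated clusters only Gm12840 was called, higher by 0.39 ± 0.11 (edgeR adjusted p = 0.0258; 4.05% of 10035 genes were), and this was lost without KO1 or KO2 (0.381 and 0.125). No member was called in terminal effector-like clusters, where 6.06% of 10129 genes were higher and 5.72% lower, and where Hopx was at 32.8, 30.5, 22.1 and 20.1 CPM in WT1, WT2, KO1 and KO2 (0.17 ± 0.10 against unnamed CD8, edgeR adjusted p = 0.345).

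The 6 selected genes were higher in both Bcl3-/- libraries than in both WT libraries within each of the 7 classes, except Hopxos in B-like clusters (0, 9.94, 8.45 and 0 CPM in WT1, WT2, KO1 and KO2) and Gm20721 in Lyz2-led clusters (0, 3.14, 2.13 and 13.4 CPM). Of all 11566 genes, 22.4% were so in unnamed CD8, 21% in interferon-stimulated, 21.5% in terminal effector-like, 22.6% in cycling-like, 16.7% in MPEC-gene, 16.2% in B-like and 18.4% in Lyz2-led clusters. Nothing is read from the counts in these classes, whose cells together held most of the UMIs that chose the genes. In B-like clusters AY036118 averaged 69.2 ± 29.1 CPM in Bcl3-/- against 7.70 ± 1.52 CPM in WT (SD, n = 2), and Gm6133 averaged 166 ± 69.7 CPM against 42.3 ± 27.0 CPM. In neutrophil-like clusters, which reached 1% of a library in KO1 and KO2 alone, AY036118 was at 40.5 and 80.8 CPM and Hopx was at 0 of 271570 and 222876 UMIs, which allows up to 11.05 and 13.46 CPM at 3 counts. The hosts may keep blood cells other than T and B cells. Whether all Lyz2-led and neutrophil-like cells came from the donor of their library was not tested. Interaction terms compared the genotype difference in B-like or Lyz2-led clusters with that in CD8 clusters. For the selected genes they are a description, since their reference is a difference that chose the genes. With all 4 libraries, though not in every fit without 1 of them, the largest was that of Gm12840. It was -1.75 ± 1.06 in B-like clusters on the log2 scale (-2.36 to -0.97 without 1 library). In Lyz2-led clusters it was -1.50 ± 0.69 (-1.95 to -0.91 without 1 library). For Hopx the terms were 0.65 ± 1.06 and -0.29 ± 0.64 and did not pass (edgeR adjusted p = 1 for both). Over all genes 3 were called lower for each class, which is 0.0274% and 0.0264% of those tested.

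Marker genes of other cells and of T cell states also moved between genotypes, in both directions, in the fit with the block (4.81% of all genes were called higher and 4.84% lower). Called higher were 6 of 6 terminal effector genes and 5 of 8 neutrophil genes. Called lower were 7 of 7 interferon-stimulated genes, 5 of 8 cycling genes and 3 of 7 MPEC genes. No other marker list had more than 2 genes called in a direction. Without the block, 2 terminal effector genes were called among these 5 lists. Summed over its genes, the neutrophil list was at 1520 and 990 CPM in WT1 and WT2 against 2655 and 3028 CPM in KO1 and KO2, with S100a8 the most abundant. The terminal effector list summed to 1336 and 1661 CPM in WT against 2366 and 2401 CPM in Bcl3-/-, with Gzma the most abundant. The interferon-stimulated list summed to 760 and 981 CPM in WT against 570 and 708 CPM in Bcl3-/-. The cycling list summed to 708 and 734 CPM against 515 and 653 CPM, and the MPEC list to 363 and 333 CPM against 317 and 306 CPM. No gene of these 5 lists was at 0. The part that these shifts had in the differences of the members was not tested. In the CD8 clusters, which held 92.2% to 95.4% of the cells of a library and thus most of the counts that chose the 6 selected genes, these were 2.77-fold (Gm29243) to 8.57-fold (AY036118) as high in Bcl3-/- as in WT. Hopx was 0.811-fold as high there. In such sums, fewer cells with a transcript and fewer copies per cell cannot be told apart.

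Barcodes with at most 100 UMIs hold mostly free RNA, and the members were found in them as well. AY036118 was at 26.4 and 12.4 CPM in these barcodes of WT1 and WT2, above its level in cells, and at 33.6 and 74.2 CPM in KO1 and KO2, just below its level in cells. The Bcl3-/- empty droplets thus held more of it than the WT ones did, as the cells did. Hopxos was at 5.28, 6.22, 11.9 and 20.6 CPM in the empty droplets of WT1, WT2, KO1 and KO2, from 4, 4, 12 and 20 UMIs, which was 0.636 to 1.28 of its level in cells. Gm12840 was at 5.28, 4.66, 10.9 and 21.6 CPM there, which was 0.281 to 0.790 of its level in cells. Gm29243 and Gm6133 were at 0.373 to 0.737 and 0.373 to 0.733 of their levels in cells. Gm20721 was at 9.24, 1.55, 5.93 and 9.27 CPM in the empty droplets of WT1, WT2, KO1 and KO2, from 7, 1, 6 and 9 UMIs, so that there its genotypes overlapped, unlike in cells. In WT1 this was 5.49 of its level in cells, the highest such ratio among the members. The level of Hopx in B-like cells, 3.31 to 8.16 CPM, lay below its level in empty droplets, 8.90 to 15.5 CPM, with overlapping counting intervals in each library. The level of Gm12840 in Lyz2-led clusters also lay below its level in empty droplets in each library. The part that free RNA had in the differences was not tested.

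**Figure D5:**
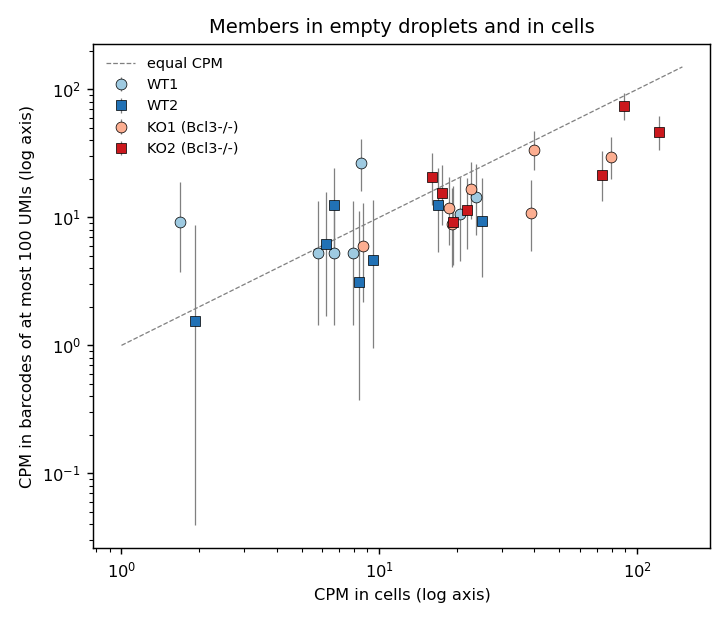
CPM of the 7 genes in barcodes of at most 100 UMIs against CPM in cells (both log axes), 1 point per gene and library, with 95% Poisson intervals and a line of equal CPM. The WT points of AY036118, at 26.4 and 12.4 CPM in empty droplets, and the WT1 point of Gm20721, at 9.24 CPM, lie above the line, and the Bcl3-/- points of Gm12840 and Gm6133 lie below it.

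All members were sparse per cell. With each cell thinned to 1000 UMIs, Gm6133 was found in 2.48% of cells of WT1 (95% exact binomial interval 2.07% to 2.96%), 1.58% of WT2 (1.31% to 1.88%), 8.07% of KO1 (7.36% to 8.84%) and 12.1% of KO2 (11.3% to 12.9%). Hopx was found in 1.87%, 2.59%, 1.92% and 1.76% of the cells of WT1, WT2, KO1 and KO2. In thinned B-like cells it was found in 0 of 105 (WT1), 0 of 112 (WT2), 1 of 134 (KO1) and 1 of 127 (KO2), where the zeros allow shares of up to 2.86% and 2.68% (3 cells). These limits are for cells with a UMI at this depth, not for cells that express the gene. Thinning left out 25, 223, 15 and 19 cells of WT1, WT2, KO1 and KO2, and the median depth before it was 3571, 2019, 3620.5 and 2948 UMIs (2297, 2025.5, 2901 and 2637 in B-like cells). Hopxos was found in 0.671% and 0.712% of WT1 and WT2 cells and in 2.04% and 1.84% of KO1 and KO2 cells. Without thinning, Hopx was found in 8.01%, 5.67%, 7.32% and 5.51% of cells of the same libraries. Genotype means of such shares could not differ at p under 0.33 in an exact permutation test of 2 libraries against 2. Of thinned cells with a Hopxos UMI, 1 of 33 (WT1), 2 of 56 (WT2), 1 of 109 (KO1) and 1 of 119 (KO2) also had a Hopx UMI. Among cells without Hopxos, 1.86%, 2.59%, 1.95% and 1.78% had one, inside the exact intervals of the former shares in each library, so no joint or exclusive use of the 2 strands in single cells was detectable at this depth.

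Of 15 distinct genes, other than the members themselves, that overlap or flank a member, 9 were tested. Without the block edgeR called none of these (1808 of all genes had an unadjusted p under 0.05). With it, Gm42418 and Gm26917, which hold ribosomal RNA sequence, were called higher, where 4.81% of all genes were. Gm26917, beside AY036118 on the other strand, was at 47.4, 55.3, 97.3 and 220 CPM in WT1, WT2, KO1 and KO2 (1.60 ± 0.31 on the log2 scale, edgeR adjusted p = 0.102, and 2.13e-05 with the block). Dmap1, the neighbour of Gm12840, was at 19.1, 22.8, 16.5 and 18.1 CPM (-0.29 ± 0.12, edgeR adjusted p = 0.308), and Saraf, the neighbour of Gm29243, was at 536, 545, 537 and 521 CPM. Neither neighbour passed the test. Gm20186, the near copy of Gm12840, was at 6.54, 8.64, 6.14 and 6.55 CPM (-0.27 ± 0.17, edgeR adjusted p = 0.5002), and Rpl17, which Gm6133 resembles, was at 3699, 3197, 3692 and 3369 CPM.

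Wider gene lists set the members in context. Long noncoding genes other than the members had a median log2 difference of 0.08 over the 508 tested (0.01 over all genes). Of the 508, edgeR called 2 higher and 0 lower, where 0.285% of all genes were higher and 0.0778% lower. With the block 33 were called higher (6.50%, where 4.81% of all genes were). Called lower with it were 11, a smaller share than the 4.84% of all genes. The 2 called without the block were Mir142hg, host of miR-142, and Snhg9, a small nucleolar RNA host. Mir142hg was at 13.9, 12.6, 69.0 and 82.1 CPM in WT1, WT2, KO1 and KO2, and Snhg9 was at 3.71, 2.97, 12.01 and 14.68 CPM. Of the opposite-strand (os) genes other than Hopxos, 39 were tested and none was called by edgeR. Mypopos, with the lowest p among them, was at 14.6, 14.6, 25.2 and 22.5 CPM (0.70 ± 0.13, edgeR adjusted p = 0.0975, and 0.00205 with the block). The sense partners of all 277 such genes in the count table, most of which were themselves too low to be tested, had 2 called higher (1.54%, where 0.285% of all genes were) and 1 lower among 130, and 9 higher and 5 lower with the block (6.92% and 3.85%, where 4.81% and 4.84% of all genes were). Of 67 pseudogenes tested, 3 were called higher (4.48%, where 0.285% of all genes were) and 0 lower, with a median of -0.02. With the block 18 were called higher and 8 lower (26.9% and 11.9%, where 4.81% and 4.84% of all genes were). The 3 were Rps18-ps3, Rpl23a-ps3 and Rpl6l, processed copies of ribosomal protein genes like Gm6133, and Rpl23a-ps3 was at 193, 146, 513 and 430 CPM. Gm8730, another pseudogene of the list, was at 232, 163, 490 and 414 CPM and was called with the block alone (1.18 ± 0.20, edgeR adjusted p = 0.0757, and 1.82e-07 with the block).

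Among genes with ribosomal RNA sequence, 4 of 8 listed were in the count table, and they summed to 130, 131, 245 and 513 CPM in WT1, WT2, KO1 and KO2. The sum includes AY036118, which was selected for its difference, at 8.52, 6.66, 39.9 and 88.9 CPM, so it is a description. Lars2, the mitochondrial leucyl-tRNA synthetase gene listed for the ribosomal RNA sequence in its transcript, went against the others at 7.28, 6.40, 3.99 and 6.04 CPM (-0.47 ± 0.21, edgeR adjusted p = 0.345). None of the 7 listed cofactors of Hopx was called without the block. Serum response factor (Srf) was at 10.6, 9.11, 15.5 and 17.7 CPM (0.73 ± 0.15, edgeR adjusted p = 0.118). With the block Srf and Mkl1 were called higher (edgeR adjusted p = 0.00880 and 0.0482), where 4.81% of all genes were. Nuclear long noncoding RNAs had no gene called among 4 tested, with Malat1 at 13620, 18710, 16843 and 15728 CPM. Of 7 genes of the handling response tested, Jun alone was called, at 32.2, 40.3, 14.6 and 14.8 CPM (-1.32 ± 0.12, edgeR adjusted p = 0.0158; 0.0778% of all genes were called lower).

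The largest rises among called genes were Prok2 (3.22 on the log2 scale), AY036118 (3.05) and Gm20721 (2.92), and the largest falls were Gbp6 (-1.71), Prg2 (-1.37) and Jun (-1.32). Prok2 encodes a secreted ligand and Gbp6 an interferon-induced GTPase. Prok2 was at 0.149, 0.208, 1.56 and 1.90 CPM in WT1, WT2, KO1 and KO2, and Gbp6 was at 42.6, 51.7, 15.7 and 13.3 CPM.

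The genes whose levels ran most like those of each member were ranked by Pearson correlation over 28 points (7 classes in 4 libraries, log2(CPM + 1), centred within each library), among 6859 genes. The points share libraries and differ in depth, so the values describe and carry no p. Hopx ran with Gmfg (0.948), Ppp1r18 (0.947) and Lfng (0.942). Hopxos ran with Abcb9 (0.922), Tpp2 (0.910) and Gm14029 (0.900), and Gm29243 with Gramd1a (0.968), Rasal3 (0.954) and Peak1 (0.951). Gm12840 ran with Cd28 (0.914), the costimulatory receptor of T cells, Cd82 (0.901) and Skap1 (0.899). Gm6133 ran with, among others, Rpl17 (0.881), which encodes a ribosomal protein. The highest values for Gm20721 (Insig2, 0.751) and AY036118 (Crebzf, 0.666) were lower.

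RefSeq promoter windows (GRCm38.p6, 250 bases before to 50 bases after a start) were given for Hopx (2 windows), Hopxos and AY036118. Those of Hopxos and AY036118 stand at RefSeq starts, which are not the starts of the GENCODE models described here. No kappaB consensus site was found on either strand of these, where 4.51% of 32851 windows held one.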

How the data were processed

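The members and gene lists were chosen with earlier results of these data known. The authors prepared 3′ libraries (10x Genomics kit, version 2), and per the submitters' processing notes used bcl2fastq 2.17, Cell Ranger 2.2.0 and mm10. The deposited values are UMI counts without normalization, for every barcode, empty droplets too. A barcode counted as a cell if 500 or more genes were detected and no more than 10% of its UMIs were mitochondrial. No doublet caller was run; small clusters (below 1% of a library's cells) joined no class, as in the study. Clusters were made per library in Seurat 5.3.0 (2000 variable genes, 15 components, 20 neighbours, resolution 0.8) without the members. A class needed 3 markers at least 2-fold above the other cells, in at least 10% of its cells, with at least 1 among its 10 leading genes; this rule was chosen after clusters had been seen.

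Counts were summed per library, or per library and class, and compared by the quasi-likelihood test of edgeR 4.0.16, with TMM factors, the filterByExpr filter and a Benjamini-Hochberg adjusted threshold of 0.05; SE is the size of the log2 difference over the root of F. Class fits had library as a block. Libraries held 20358780 to 22922219 UMIs. WT and Bcl3-/- libraries of the same number came from the same animal, so the numbers pair them, and the difference between chimeras in WT correlated with that in Bcl3-/- (r = 0.291 over 6863 genes). DESeq2 1.42.0 was an alternative. The edgeR steps were tested on simulated data. Intervals (95% Poisson or exact binomial) cover counting error only, and a count of 0 was taken to allow 3 counts. Transcripts were compared with BLAST+ 2.17.0. Named genes were the members, for each the 3 most alike genes of at least 10 CPM, flanking, overlapping and sequence-sharing genes, list members of lowest p, and the 3 largest rises and falls among called genes. Some genes alike to Gm6133 by this rule are not reported here.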

Additional observations from a re-analysis of the deposited data

How the results depend on the processing

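With chimera as a replicate block, which the shared animals allow, 1116 genes were called between genotypes (556 higher, 560 lower), against 42 without it. The block moved no selected gene's direction and left Hopx uncalled. DESeq2 called 199 genes, thinning to 1000 UMIs 69, and leaving out 1 library 40 to 228. Of alternatives chosen after seeing the data, CD8 clusters with the replicate block called 1332 and thinned cells with the replicate block 218. The log2 difference of Gm29243 was 1.51 on thinned cells, 1.504 on these with the block, and 1.36 to 1.52 when 1 library was left out. Without 1 library it was 2.30 to 3.35 for Gm20721, 2.42 to 3.48 for AY036118 and 1.35 to 1.67 for Hopxos. Across 16 settings the 6 selected genes kept their direction, and Hopx stayed between -0.45 and -0.21 (edgeR or DESeq2 adjusted p 0.0975 to 0.755) and was never called.

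Between classes, 13 to 17 of 42 differences were called when 1 library was left out. Signs turned among differences that were never called. At resolution 0.4 Gm20721 was at -0.026 in MPEC-gene and -0.11 in terminal effector-like clusters, Hopxos was at 0.0027 in the latter, and the Lyz2-led interaction of Gm29243 was -0.51. Without 1 library, AY036118 ranged from -0.20 to 0.16 in MPEC-gene and -0.25 to 0.10 in interferon-stimulated clusters, where Gm6133 ranged from -0.0082 to 0.063. In terminal effector-like clusters Gm20721 ranged from -0.065 to 0.20, Gm6133 from -0.13 to 0.024 and Hopxos from -0.28 to 0.12. Interactions ranged in B-like clusters from -1.02 to 6.91 (Gm20721), -0.66 to 0.31 (Gm6133) and -9.89 to 7.02 (Hopxos), and in Lyz2-led clusters from -0.20 to 1.06 (AY036118), -1.83 to 6.32 (Gm20721), -0.60 to 0.90 (Gm29243), -1.57 to 0.42 (Hopx) and -0.63 to 0.88 (Hopxos). The causes of these changes were not tested. Without KO1, Gm29243 was called lower in MPEC-gene clusters (edgeR adjusted p = 0.0402), and without KO2, Gm20721 was called lower in cycling-like clusters (0.0367). UMIs in small classes, often under 10 per gene and library, limit these values.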

Other observations

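The genes named here were chosen after their values were seen. They are single genes and do not stand for a group. Rps27rt was at 218, 152, 509 and 491 CPM in WT1, WT2, KO1 and KO2 (1.42 ± 0.18 on the log2 scale, edgeR adjusted p = 0.0354), and Rpl6l was at 118, 80.5, 280 and 257 CPM (1.42 ± 0.19, edgeR adjusted p = 0.0408).

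Apart from the members, 124 tested genes had at least 50% of their exon bases opposite exons of another gene. Their median log2 difference was 0.06, and edgeR called none of them (23 had an unadjusted p under 0.05), or 10 higher and 6 lower with the block (8.06% and 4.84%, where 4.81% and 4.84% of all genes were). The order of Gm20721, with KO2 above KO1 and both above WT, was held by 29 of them (23.4%), and by 18.8% of all genes tested. The following 3 were picked from the 29 for their large differences. Gm11175, wholly opposite Jund, was at 0.891, 0.781, 2.11 and 9.06 CPM (2.69 ± 0.66, edgeR adjusted p = 0.149, and 0.000976 with the block), while Jund was at 561, 706, 605 and 708 CPM. Gm26899, opposite Zfp106, had 2, 3, 12 and 43 UMIs, and Gm26819, opposite Med10, had 3, 2, 11 and 37 UMIs. Neither was called without the block (edgeR adjusted p = 0.149 and 0.158), and both were with it (0.00653 and 0.0156). In empty droplets Gm42418, opposite AY036118, was at 199, 284, 106 and 157 CPM in WT1, WT2, KO1 and KO2, so that there the WT libraries were not below the Bcl3-/- libraries, whereas in cells they were. The 6 erythroid marker genes summed to 60.3, 94.8, 9.35 and 218 CPM, with the lowest and the highest value both in Bcl3-/- libraries, and none of them was called by edgeR with or without the block.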
